A study of Mus musculus with 13 samples.

Results

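The genes described here are a module of 29 replication and mitosis genes, out of 18038 genes on the array. They were taken from a list of 32 cell cycle genes wherever the array table carried the listed symbol, with Cdk1 accepted under its older symbol Cdc2a. Mki67, Aurka and Aurkb were not found under those symbols. The 29 genes had 51 probes. Of these genes, 23 passed the filter on low values, a detection p under 0.01 on at least 2 of 13 arrays, and 6 did not.

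The cells came from cochleae of 3-day-old C57BL6 mice with the Math1-nGFP reporter, a nuclear green fluorescent protein driven by the hair cell gene Math1 (Atoh1), and each sorted population was hybridised to Illumina BeadChips. All populations shared strain, age and reporter, and differed by the sort gate. BM (1 array) was GFP-negative, low in CD271 and CD326-negative, and the labels place it below the basilar membrane. CD271high (3 arrays, A to C) was GFP-negative and high in CD271, and the labels call it suspected cochlear macrophages. HC (4 arrays, A to D) was GFP-positive, the hair cells. GER (3 arrays), cells of the greater epithelial ridge beside the organ of Corti, was GFP-negative, low in CD271, high in CD146 and CD326-positive. DC (2 arrays), for Deiters' and Claudius cells, had the same gate as GER except for low CD146. Each gate takes whatever cells carry these surface proteins, so a sort can hold several cell types. Whether replicate letters are separate animals is not stated, so p-values measure only the spread between these arrays, which may be technical.

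Before a cell divides, the proteins of DNA replication copy the genome in S phase, and a later wave of mitotic proteins condenses, attaches and separates the chromosomes. Many of the genes are switched on only in cycling cells, the replication genes largely through E2F factors and the mitotic genes through promoter elements bound by the DREAM and MMB-FOXM1 complexes. In the mouse organ of Corti, hair cells and supporting cells leave the cell cycle before birth and do not normally divide again. In a bulk sample, fewer cells of a cycling type and less RNA per cell cannot be told apart.

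The promoters of 5 members are shown because they stand for the patterns met below: Cdk1 and Ccnb1, low on 8 of the 9 arrays of HC, GER and DC, and Plk1, Cdca3 and Cdc6, which were also high in HC. They are RefSeq windows from 250 bases before to 50 bases after the start of the gene in build GRCm38.p6, 5′ to 3′ on the strand of the gene. The windows are Cdk1 at chr10:69352863-69353162 on the minus strand, Ccnb1 at chr13:100786437-100786736 on the minus strand, Plk1 at chr7:122159185-122159484 on the plus strand, Cdca3 at chr6:124829926-124830225 on the plus strand, and Cdc6 at chr11:98907901-98908200 on the plus strand. Capitals mark matches on either strand to TTTGAA (the core of the CHR element), to CCAAT, or to 1 of 4 E2F strings (TTCCCGC or TTGGCGC or TTCGCGC or TTGCCGC).
Cdk1: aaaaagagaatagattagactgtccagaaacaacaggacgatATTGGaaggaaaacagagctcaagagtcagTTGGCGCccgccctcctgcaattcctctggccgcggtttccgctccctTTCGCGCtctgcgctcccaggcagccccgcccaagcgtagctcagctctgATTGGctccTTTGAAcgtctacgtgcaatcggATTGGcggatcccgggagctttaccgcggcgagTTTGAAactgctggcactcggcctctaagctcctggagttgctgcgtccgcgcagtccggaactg
Ccnb1: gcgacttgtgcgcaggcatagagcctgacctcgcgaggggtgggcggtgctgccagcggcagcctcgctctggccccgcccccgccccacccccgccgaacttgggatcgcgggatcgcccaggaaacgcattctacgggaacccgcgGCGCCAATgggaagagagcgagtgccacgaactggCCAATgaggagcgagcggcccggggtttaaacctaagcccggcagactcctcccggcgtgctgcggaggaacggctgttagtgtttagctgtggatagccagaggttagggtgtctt
Plk1: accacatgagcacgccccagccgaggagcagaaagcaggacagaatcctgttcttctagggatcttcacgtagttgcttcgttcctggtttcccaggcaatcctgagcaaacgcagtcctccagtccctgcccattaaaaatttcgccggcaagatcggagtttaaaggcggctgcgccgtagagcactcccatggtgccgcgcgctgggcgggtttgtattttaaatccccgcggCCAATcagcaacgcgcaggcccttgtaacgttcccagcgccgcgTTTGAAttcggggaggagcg
Cdca3: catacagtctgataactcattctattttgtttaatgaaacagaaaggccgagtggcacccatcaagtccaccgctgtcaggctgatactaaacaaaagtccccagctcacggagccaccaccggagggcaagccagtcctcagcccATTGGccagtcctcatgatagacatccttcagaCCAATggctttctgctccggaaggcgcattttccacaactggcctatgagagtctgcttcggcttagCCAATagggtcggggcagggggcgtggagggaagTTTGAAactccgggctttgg
Cdc6: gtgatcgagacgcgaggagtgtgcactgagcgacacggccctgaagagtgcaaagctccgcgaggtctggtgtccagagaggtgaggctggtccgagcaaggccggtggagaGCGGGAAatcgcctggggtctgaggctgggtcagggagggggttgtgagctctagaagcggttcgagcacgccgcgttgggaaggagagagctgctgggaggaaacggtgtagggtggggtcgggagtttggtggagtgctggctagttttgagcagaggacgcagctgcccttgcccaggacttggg

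Cdk1 held all 3 kinds of match, Plk1 and Cdca3 held TTTGAA and CCAAT but no E2F string, Ccnb1 held CCAAT at 2 places, at 1 of them overlapping an E2F string, and Cdc6 held an E2F string alone. Promoter windows were matched for 26 of the 29 genes. Ccna2, Ccne2 and Mcm4 had no match. TTTGAA occurred in 12 of 26 (46.2%) and in 17.9% of all 32851 windows of this length. CCAAT occurred in 21 (80.8%) and in 37.4% of all windows. An E2F string occurred in 9 (34.6%) and in 9.6% of all windows. Such a match describes the letters only, and a window without one says nothing of the factor.

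Detected probes numbered 10343 to 11618 of 25697 on each array, and levels are log2 intensities after background correction and quantile normalization. The labels were read against marker genes first. All 17 measured hair cell markers were higher in HC relative to GER and DC, and all 15 macrophage markers were higher in CD271high than in HC, GER and DC. Of 11 Deiters' and pillar cell markers, 8 were lower in GER than in DC, while of 10 greater ridge markers 0 were higher in GER than in DC and 1 was lower. Ngfr, which encodes CD271, was lower in CD271high relative to HC, GER and DC (-1.97 ± 0.26, adjusted p = 6.6e-05). Of the gates labelled low in CD271, DC was higher than CD271high (-3.49 ± 0.35, adjusted p = 1.6e-05), against the label's gate. The difference from GER did not pass (-0.82 ± 0.31, adjusted p = 0.07). The labels give no CD271 level for HC. HC replicate D stood apart from HC A, B and C, as described below.

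The replication and mitosis genes were high in CD271high and BM and low in the epithelial sorts. The mean level of the 23 genes, each taken relative to its own mean over the 13 arrays, was 1.33 in BM, and 1.18, 1.47 and 1.52 in CD271high A to C. It was -0.56, -0.57, -0.81 and 0.38 in HC A to D, -0.98, -0.72 and -0.58 in GER, and -0.86 and -0.81 in DC. The BM and CD271high arrays lay above every other array, HC D lay between them and the rest, and HC A to C overlapped GER and DC. The lowest CD271high array exceeded the highest array of HC, GER and DC, which was HC D, by 0.80.

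**Figure D1:**
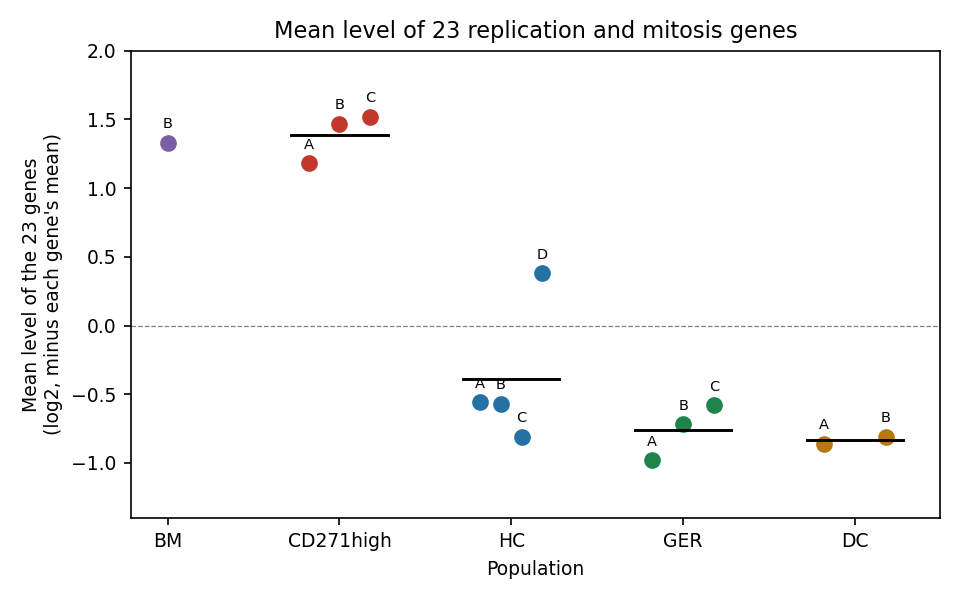
Mean log2 level of the 23 genes per array (vertical axis, each gene minus its mean over 13 arrays) by population, with replicate letters beside the points and a line at each group mean. BM (1.33) and the CD271high arrays (1.18 to 1.52) lie highest, HC D (0.38) lies between, and the other 8 arrays lie from -0.98 to -0.56.

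CD271high was set against the mean of HC, GER and DC to ask how this gate differs from the epithelial cells in the expression of cell cycle genes. Of the 23 genes tested, 22 were higher in CD271high, 0 were lower, and Ccne1 did not pass. Among all 10088 genes tested, 19.4% were called higher and 24.2% lower. The median difference of the members was 1.64 on the log2 scale, against -0.08 over all genes. With the 4 members that were undetected on every array of HC, GER and DC at their bounds it was 1.59. In 18 of the 23, the CD271high arrays lay above every array of HC, GER and DC, which was so for 12.7% of all genes. The reverse held for 0 of 23 and for 10.2% of all genes. Of the 23, 9 reached the filter with fewer than 2 detected arrays among HC, GER and DC, so a difference was built into their passing. The other 14 were all higher.

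**Figure D2:**
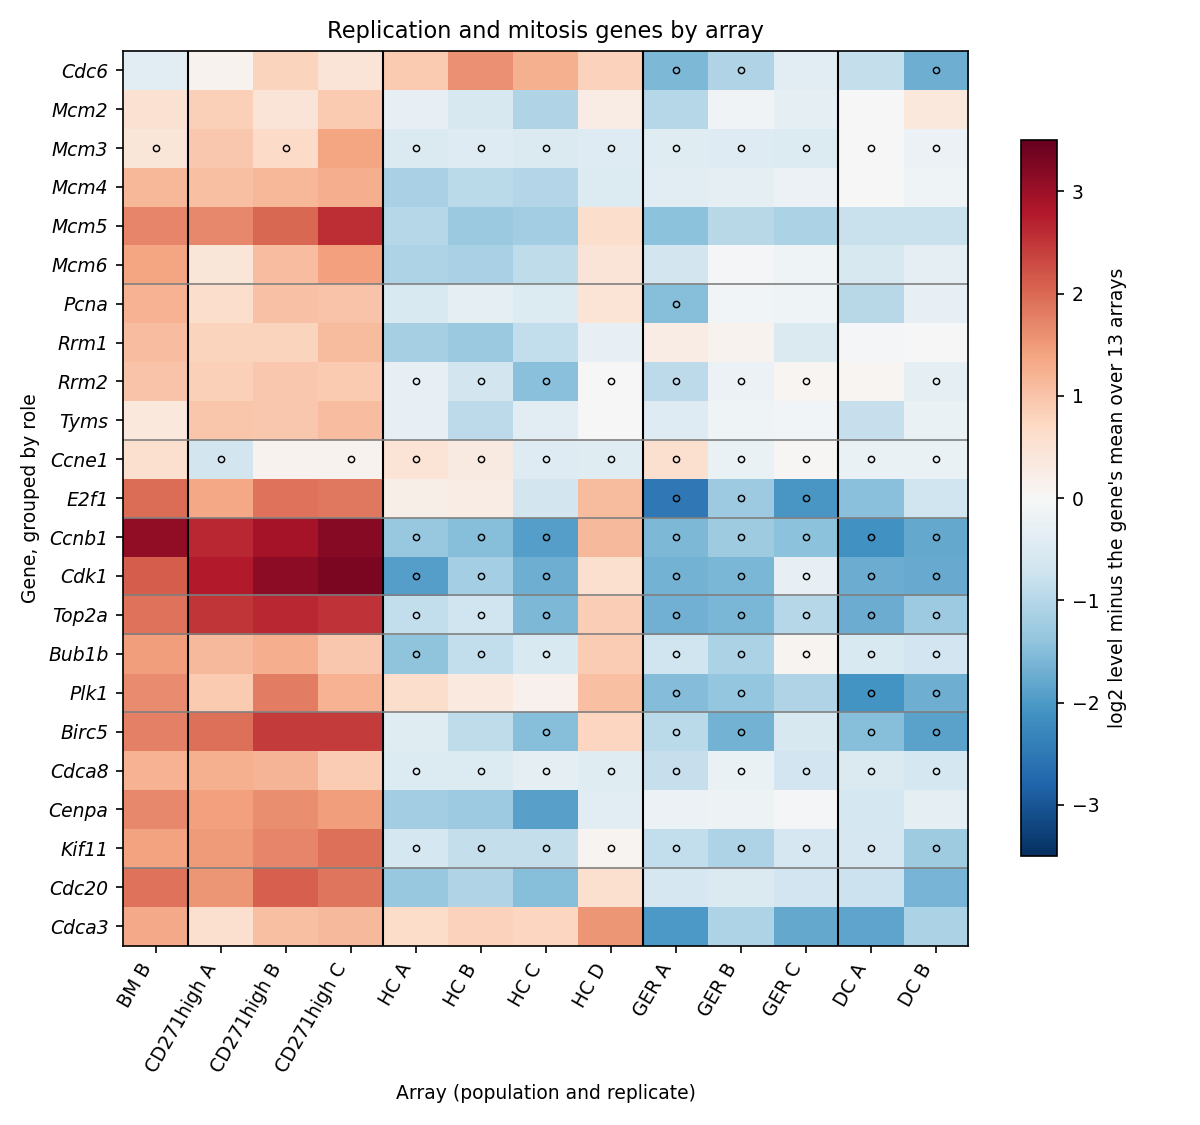
Log2 level of each gene minus its mean over the 13 arrays (colour) for 23 genes grouped by role (rows) and arrays in order of population (columns). An open circle marks an array on which the gene was not detected. The BM and CD271high columns are above the gene's mean for nearly all genes, and Ccnb1 and Cdk1 show the widest range.

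The mitotic kinase Cdk1 and its partner cyclin B1 (Ccnb1), which together drive entry into mitosis, had the widest fitted differences, against levels that were mostly not above background. Cdk1 had log2 levels of 9.53 on the BM array, 10.18, 10.54 and 10.70 on the CD271high arrays, 5.47, 6.22, 5.69 and 7.98 on HC A to D, 5.76, 5.81 and 7.11 on the GER arrays, and 5.67 and 5.63 on the DC arrays. The CD271high and BM arrays were all above the rest, and among HC, GER and DC the gene was detected on HC D alone. Cdk1 was 21.1-fold higher in CD271high (4.40 ± 0.46, SE, adjusted p = 9.6e-06, limma with Benjamini-Hochberg adjustment). It was undetected in GER and DC, so the difference is a bound there, at least 9.26-fold against GER and at least 11.4-fold against DC. A further Cdk1 probe, detected on 2 arrays, showed a difference of 0.05, so the probes of this gene disagreed. With the mean of its probes Cdk1 was 4.68-fold higher. Without background correction it was 6.11-fold higher, and 6.08-fold with the authors' deposited log2 values. Ccnb1 had levels of 10.33 on the BM array, 9.88, 10.15 and 10.41 on the CD271high arrays, 5.90, 5.75, 5.31 and 8.37 on HC A to D, 5.66, 5.98 and 5.80 on the GER arrays, and 5.11 and 5.44 on the DC arrays. Again the groups did not overlap and only HC D was detected outside BM and CD271high. Ccnb1 was 20.2-fold higher in CD271high (4.34 ± 0.49, adjusted p = 1.9e-05), at least 7.37-fold against GER and at least 9.04-fold against DC, and its other passing probe gave 3.75. Without background correction Ccnb1 was 5.44-fold higher.

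Top2a, the topoisomerase that untangles replicated chromosomes and a usual marker of dividing cells, followed the same order. Its levels were 8.87 on the BM array, 9.46, 9.60 and 9.50 on the CD271high arrays, 6.10, 6.26, 5.40 and 7.83 on HC A to D, 5.29, 5.37 and 5.96 on the GER arrays, and 5.23 and 5.69 on the DC arrays. No array of HC, GER or DC reached the lowest CD271high array, and HC D was the nearest. Top2a was 13.2-fold higher in CD271high (3.72 ± 0.38, adjusted p = 8.5e-06), at least 4.79-fold against GER and at least 5.88-fold against DC, and 3.85-fold higher without background correction. Without that correction, 12 of the 22 higher members had folds over 1.5 times smaller, as they had with the authors' values. All but Cdc6 passed in both.

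Among the genes of chromosome attachment and spindle, 4 of 4 measured were higher. Birc5 (survivin), a subunit of the chromosomal passenger complex that corrects kinetochore attachments, had levels of 9.83 on the BM array, 10.01, 10.53 and 10.52 on the CD271high arrays, 7.65, 7.20, 6.59 and 8.83 on HC A to D, 7.13, 6.42 and 7.53 on the GER arrays, and 6.58 and 6.22 on the DC arrays. The CD271high arrays were above all HC, GER and DC arrays, and HC D was the highest of those. Birc5 was 10.2-fold higher (3.35 ± 0.38, adjusted p = 2.1e-05), with 3.46 and 3.69 for its other passing probes, and 4.42-fold higher without background correction. Those other probes were each detected on 4 arrays, so their differences were against background levels. The probe used was detected on 4 of the 9 HC, GER and DC arrays, and not in DC. Cenpa, the histone variant that marks centromeres, was 4.32-fold higher (2.11 ± 0.24, adjusted p = 1.7e-05) and detected on all 13 arrays. Kif11, the kinesin that pushes the spindle poles apart, and Cdca8 (borealin), another passenger subunit, were undetected on every array of HC, GER and DC, and against this floor Kif11 was at least 1.95-fold and Cdca8 at least 1.06-fold higher in CD271high.

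The remaining mitotic genes were Cdc20, Cdca3, Plk1 and Bub1b. Cdc20, the activator of the anaphase-promoting complex that starts chromosome separation, had levels of 10.76 on the BM array, 10.41, 10.96 and 10.73 on the CD271high arrays, 7.54, 7.81, 7.36 and 9.43 on HC A to D, 8.28, 8.35 and 8.20 on the GER arrays, and 8.12 and 7.23 on the DC arrays. It was detected everywhere, and CD271high and BM lay above all other arrays. Cdc20 was 6.53-fold higher in CD271high (2.71 ± 0.37, adjusted p = 8.6e-05). Bub1b, which encodes the spindle checkpoint protein BubR1, was detected on 1 of the 9 HC, GER and DC arrays. It passed (adjusted p = 0.0041), with bounds of at least 1.24-fold against GER and at least 1.52-fold against DC. Plk1, a kinase of mitotic entry and spindle assembly, was 4.61-fold higher (2.21 ± 0.23, adjusted p = 8.2e-06), although CD271high A, at 9.24, lay below HC D, at 9.38.

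Of the 6 measured licensing and helicase genes, 6 were higher, by 0.83 to 2.98. Mcm5, a subunit of the MCM helicase that unwinds DNA at the fork, had levels of 11.17 on the BM array, 11.15, 11.46 and 12.05 on the CD271high arrays, 8.46, 8.17, 8.25 and 10.09 on HC A to D, 8.02, 8.49 and 8.35 on the GER arrays, and 8.68 and 8.67 on the DC arrays. CD271high and BM did not overlap the rest, and HC D was the nearest array. Mcm5 was 7.91-fold higher in CD271high (2.98 ± 0.35, adjusted p = 2.8e-05). Mcm4, another subunit, differed by 1.59 ± 0.14 (adjusted p = 2.8e-06), and Mcm6 by 1.43 ± 0.32 (adjusted p = 0.0035), with 2.0 and 2.04 at its other passing probes. Mcm2 differed by 0.96 ± 0.26 (adjusted p = 0.01) and did not pass against DC alone (0.54, adjusted p = 0.31). Mcm3 was detected on only 2 of 3 CD271high arrays and on no other array.

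The 4 genes of the fork and of nucleotide supply were all higher, with fitted differences of 1.22 to 1.38. Tyms, thymidylate synthase, differed by 1.38 ± 0.19 (adjusted p = 8.2e-05), and Pcna, the sliding clamp of the DNA polymerases, by 1.36 ± 0.31 (adjusted p = 0.0037). Rrm2 and Rrm1, the small and large subunits of ribonucleotide reductase, differed by 1.27 ± 0.28 (adjusted p = 0.003) and 1.22 ± 0.22 (adjusted p = 0.00076). Rrm2 was detected on 1 of the 9 HC, GER and DC arrays, so its difference was mostly against background levels. Its bounds were at least 1.59-fold against HC and at least 1.44-fold against GER. Of the G1 to S regulators, E2f1, the transcription factor of the S phase programme, was 6.21-fold higher (2.64 ± 0.34, adjusted p = 5.5e-05). Ccne1, cyclin E1, had levels from 6.09 to 7.30 on the 13 arrays, was detected on 2 of them, and differed by -0.09 ± 0.25 (adjusted p = 0.81).

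Against the single populations, 20 of 23 members were higher in CD271high than in HC (28.3% of all genes), 22 than in GER (14.5%) and 20 than in DC (12.2%). In each, 0 were lower, against 26.7% of all genes for HC, 16.1% for GER and 12.8% for DC. These comparisons share the CD271high arrays. The members that did not pass against HC were Ccne1, Cdc6 and Cdca3, and those against DC were Ccne1, Mcm2 and Rrm2 (1.05 ± 0.38, adjusted p = 0.065). Within beadchip 1, on which 7 of the 12 arrays lay, 22 of 23 differences were above 0, with a median of 1.89 against -0.07 over all genes. Within beadchip 2, with 5 arrays, 21 of 23 differences were above 0 and 4 passed (Cdca8, Kif11, Mcm3 and Mcm4). That chip holds 1 CD271high and 1 GER array, which the fit assumes to vary like the 3 HC arrays. Of the 4 genes, Mcm4 alone was detected in HC, GER or DC.

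Markers of other cell types moved with this comparison. The macrophage list had a mean level of 4.78 to 4.88 in CD271high with 15 of 15 genes detected, against -1.21 to -0.52 in HC, -2.28 to -2.03 in GER and -1.79 and -1.17 in DC, where 1 to 8 were detected. The Schwann and satellite glia list lay at 2.19 to 2.47 in CD271high, -2.38 to 0.55 in HC, -1.02 to -0.71 in GER, and -1.32 and -0.92 in DC, and 6 of its 7 genes were higher in CD271high. Of 10 mesenchyme markers 6 were higher. The part of these cell types in the level of the cycle genes was not tested.

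**Figure D3:**
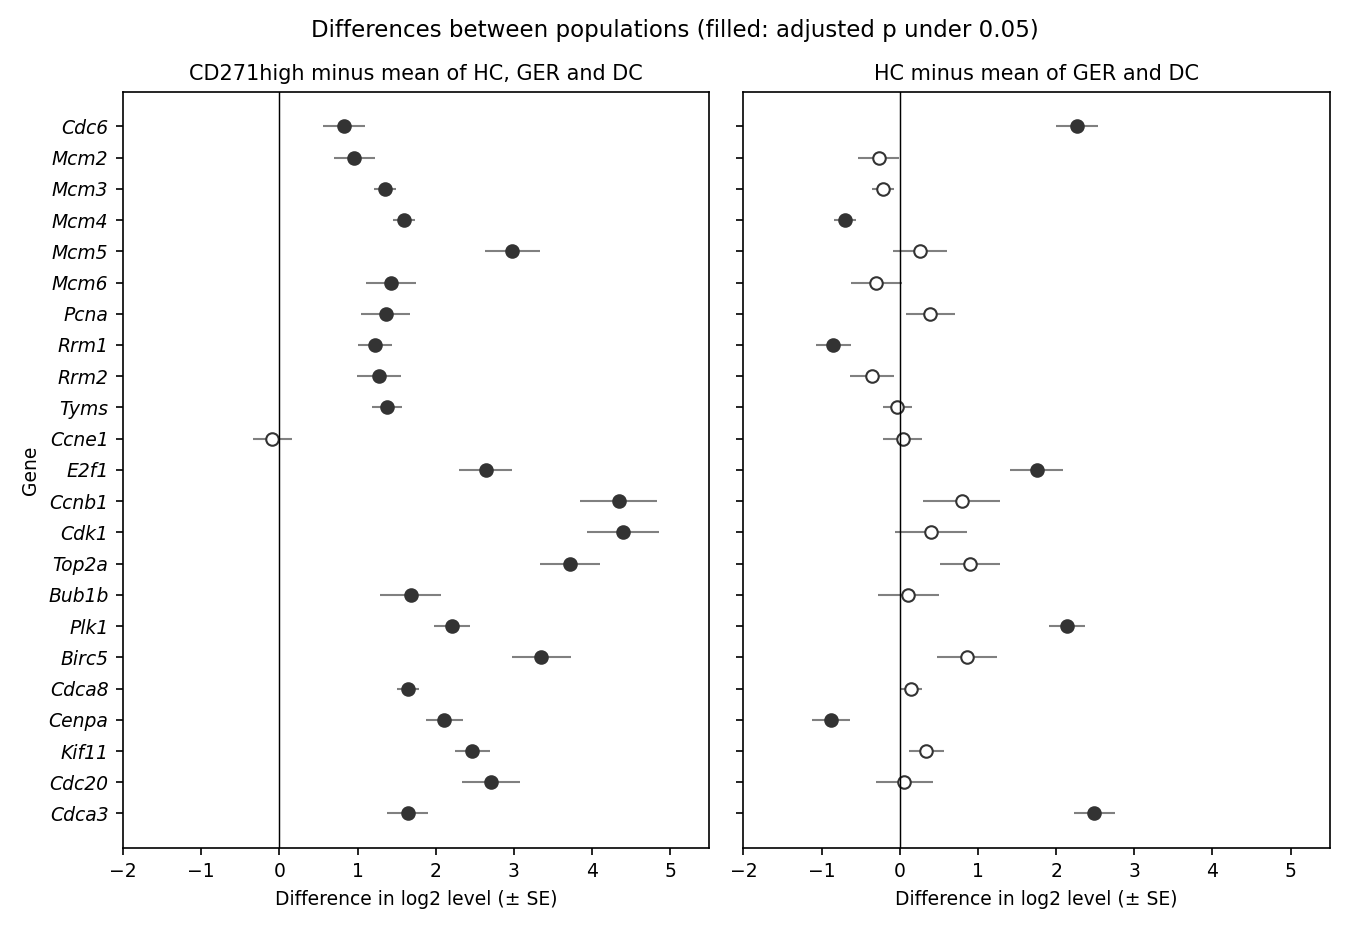
Difference in log2 level (horizontal axis, ± SE) for each of 23 genes in CD271high minus the mean of HC, GER and DC (left) and in HC minus the mean of GER and DC (right). Filled points had an adjusted p under 0.05. On the left 22 genes lie to the right of 0 and filled, and on the right 4 filled genes lie above 0 and 3 below.

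HC was compared with GER and DC to ask whether hair cells differ from the neighbouring epithelium in these genes. Of 23 genes, 4 were higher in HC, 3 were lower and 16 did not pass. Among all genes 19.5% were higher and 26.5% lower, and the members' shares did not exceed this background. The median difference of the members was 0.14, against -0.09 over all genes. It was 0.00 with the 9 members that had an undetected side at their bounds, and -0.14 without HC replicate D. Without background correction the 4 higher genes passed with folds of 1.90 to 3.43, against 3.37 to 5.61 with it. Markers of other cell types moved with this comparison. Of 12 endothelium markers, 7 were higher in HC and 0 lower, at mean levels of 1.09, 0.96, -0.53 and 1.41 on HC A to D, against -1.04, -0.47 and 0.53 in GER and -0.98 and -1.18 in DC. Of 10 greater ridge markers, 7 were lower. Of 15 macrophage markers 3 were higher, which is near the share over all genes. The part of these cell types in the differences of the members was not tested.

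The genes that were higher in HC were Cdca3, Cdc6, Plk1 and E2f1. Cdca3, which encodes a protein that helps to degrade the mitotic inhibitor Wee1, had levels of 10.74 on the BM array, 9.97, 10.48 and 10.55 on the CD271high arrays, 10.06, 10.22, 10.16 and 10.97 on HC A to D, 7.40, 8.33 and 7.63 on the GER arrays, and 7.56 and 8.32 on the DC arrays. All HC arrays were above all GER and DC arrays and in the range of CD271high and BM, with HC D slightly above it. Cdca3 was 5.61-fold above GER and DC in HC (2.49 ± 0.26, adjusted p = 9.4e-06), and its other probe gave 2.80. That probe was detected on 8 arrays, and its GER and DC levels were near background (5.04 to 5.72). Between CD271high and HC Cdca3 differed by -0.02 ± 0.29 (adjusted p = 0.97).

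Cdc6, which loads the MCM helicase onto replication origins, was the only member with all HC arrays above every other array. Its levels were 7.46 on the BM array, 7.95, 8.62 and 8.28 on the CD271high arrays, 8.74, 9.44, 9.07 and 8.63 on HC A to D, 6.27, 6.77 and 7.44 on the GER arrays, and 7.0 and 6.13 on the DC arrays. No CD271high, BM, GER or DC array reached the lowest HC array. Cdc6 was 4.83-fold above GER and DC in HC (2.27 ± 0.27, adjusted p = 3e-05). Between CD271high and HC it differed by -0.69 ± 0.31 (adjusted p = 0.079). Of its 4 probes only 1 was detected, and the other 3 differed by 0.10, -0.15 and 1.07 between HC and GER with DC.

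Plk1 had levels of 9.98 on the BM array, 9.24, 10.14 and 9.56 on the CD271high arrays, 8.96, 8.67, 8.48 and 9.38 on HC A to D, 6.81, 6.98 and 7.29 on the GER arrays, and 6.24 and 6.63 on the DC arrays. HC lay above GER and DC on every array and overlapped CD271high. Plk1 was 4.41-fold above GER and DC in HC (2.14 ± 0.23, adjusted p = 1.1e-05), and at least 3.74-fold against DC, where it was undetected. E2f1 had levels of 10.43 on the BM array, 9.84, 10.39 and 10.33 on the CD271high arrays, 8.70, 8.74, 7.85 and 9.58 on HC A to D, 5.97, 7.20 and 6.44 on the GER arrays, and 7.02 and 7.78 on the DC arrays. The HC arrays were between CD271high and the GER and DC arrays, with no overlap on either side. E2f1 was 3.37-fold higher in HC (1.75 ± 0.34, adjusted p = 0.0012) and at least 2.75-fold against GER, where it was undetected. These 4 genes were detected on all 4 HC arrays. The HC arrays lay above every GER and DC array for 4 members and below them for 1, Mcm4, against 16.4% and 20.3% of all genes.

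**Figure D4:**
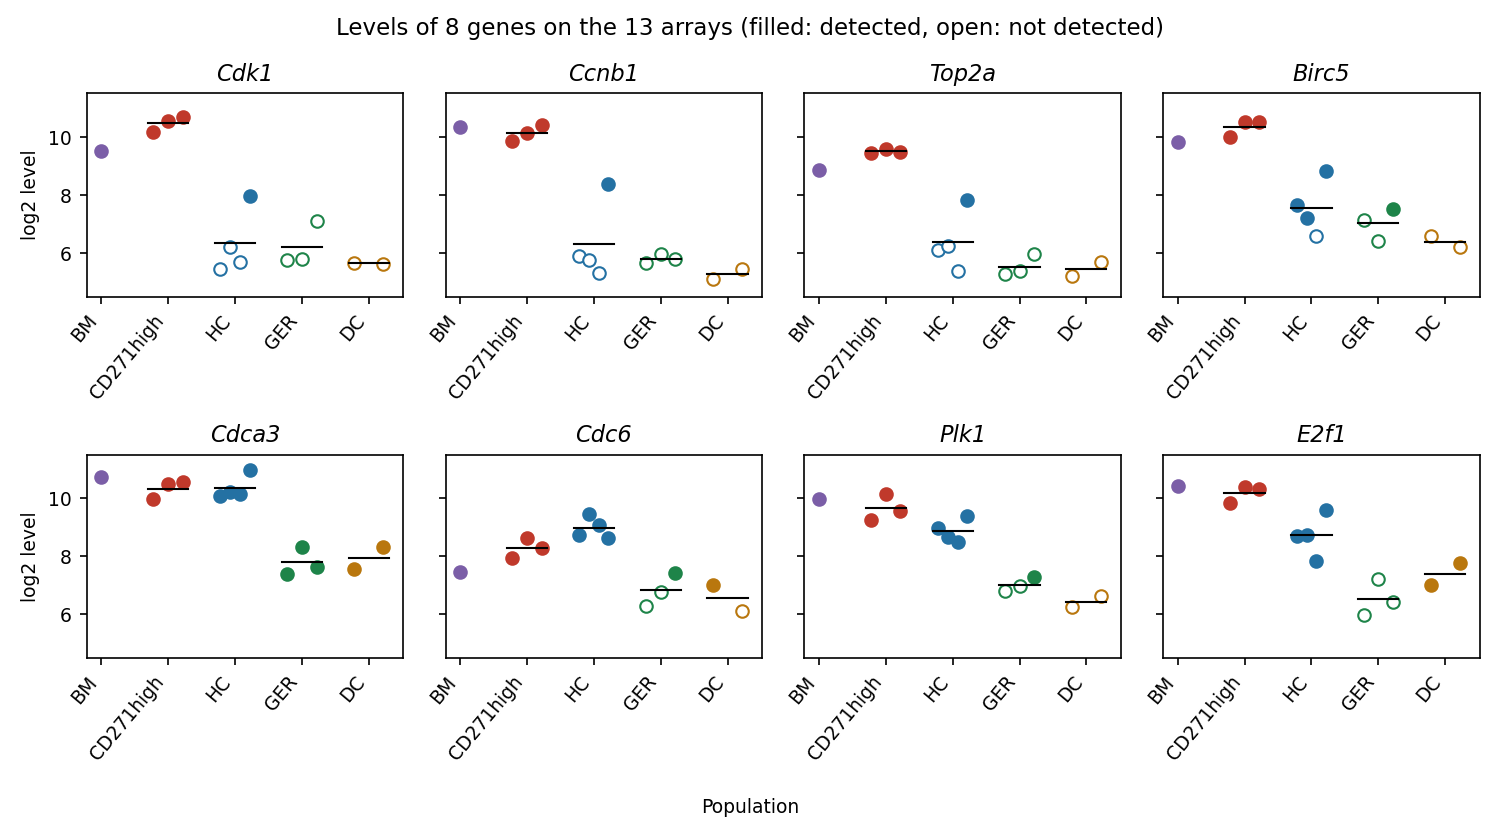
Log2 level (vertical axis) on each array by population for Cdk1, Ccnb1, Top2a and Birc5 (top) and Cdca3, Cdc6, Plk1 and E2f1 (bottom). Filled points were detected, open points were not, and lines mark group means. In the top row only BM, CD271high and HC D are far above the rest, and in the bottom row all HC arrays lie above GER and DC.

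Cenpa, Rrm1 and Mcm4 were lower in HC. Cenpa had levels of 12.85 on the BM array, 12.59, 12.79 and 12.62 on the CD271high arrays, 9.94, 9.89, 9.27 and 10.77 on HC A to D, 10.95, 10.99 and 11.09 on the GER arrays, and 10.56 and 10.81 on the DC arrays. HC A to C lay below GER and DC, and HC D lay within the DC range. Cenpa fell by 0.88 on the log2 scale (SE 0.24, adjusted p = 0.0095). Rrm1 had levels of 10.52 on the BM array, 10.22, 10.24 and 10.56 on the CD271high arrays, 8.29, 8.16, 8.60 and 9.17 on HC A to D, 9.72, 9.57 and 8.95 on the GER arrays, and 9.39 and 9.43 on the DC arrays. Only HC D overlapped GER, and Rrm1 fell by 0.85 (SE 0.22, adjusted p = 0.0073).

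Mcm4 had levels of 12.51 on the BM array, 12.42, 12.52 and 12.62 on the CD271high arrays, 10.23, 10.42, 10.32 and 10.89 on HC A to D, 10.98, 11.02 and 11.15 on the GER arrays, and 11.34 and 11.21 on the DC arrays. No HC array reached GER or DC, and CD271high and BM were above all of them. Mcm4 fell by 0.70 (SE 0.14, adjusted p = 0.0018). Of the other MCM subunits, Mcm2 differed by -0.27 ± 0.26, Mcm6 by -0.30 ± 0.33 and Mcm5 by 0.26 ± 0.35, none of which passed. Cdk1 (0.40 ± 0.46), Ccnb1 (0.79 ± 0.49), Top2a (0.90 ± 0.38, adjusted p = 0.074) and Birc5 (0.86 ± 0.38, adjusted p = 0.089) did not pass either.

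The same direction was found for HC against GER (4 higher, 18.5% of all genes, and 3 lower, 24.0%) and against DC (4 higher, 15.6%, and 2 lower, 20.3%), comparisons that share the HC arrays. Within beadchip 1, with 1 HC array that is assumed to vary like the other groups, the counts were 5 higher, Birc5 being added (1.07, adjusted p = 0.037), and 3 lower. Within beadchip 2, where GER C was the only GER or DC array, Cdca3 alone passed (2.82, adjusted p = 0.015), and the spread there came from the 3 HC arrays. Without HC replicate D the 4 higher genes and the 3 lower genes passed again, and Mcm6 was lower too (-0.67, adjusted p = 0.03). Without HC replicate C, Birc5 (1.18, adjusted p = 0.019) and Top2a (1.23, adjusted p = 0.014) were also higher.

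The HC arrays did not carry the module equally. HC D lay above HC A, B and C for 20 of 23 members, against 34.3% of all genes, and was at least 1 log2 unit above their mean for 10 members, against 4.04%. Of the 20, Kif11, Mcm3 and Rrm2 were undetected on all HC arrays, and Mcm3 was level to 2 decimals with the highest of HC A to C (5.57). The median of D minus the mean of A to C was 0.91 over the members and 0.04 over all genes. Ccnb1 had 8.37 on HC D and 5.31 to 5.90 on HC A to C. Cdk1 had 7.98 against 5.47 to 6.22, Top2a 7.83 against 5.40 to 6.26, and Bub1b 7.33 against 5.04 to 5.91. These 4 genes were detected on HC D and on no other HC, GER or DC array. Cdc20 (9.43 against 7.36 to 7.81), Mcm5 (10.09 against 8.17 to 8.46), Birc5 (8.83 against 6.59 to 7.65) and Mcm6 (10.67 against 9.07 to 9.33) were also higher on HC D. At the other passing probes of Mcm6, HC D was nearer to HC A to C (9.38 against 8.51 to 9.32, and 8.33 against 7.63 to 8.04). Cdc6 (8.63 against 8.74 to 9.44) lay below HC A to C, and Ccne1 (6.31) and Cdca8 (5.65) lay within their range.

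Markers of non-epithelial cells moved with HC D. The Schwann and satellite glia list had a mean level of 0.55 on HC D, against -1.98, -1.37 and -2.38 on HC A to C. The pericyte list had 1.10 against -0.62, -0.68 and -0.73, the mesenchyme list 0.19 against -0.76, -0.68 and -0.88, and the macrophage list -0.52 against -0.96, -1.13 and -1.21, with 8 of 15 macrophage genes detected on D and 3 on each of A to C. The endothelium list had 1.41 on D, against 1.09, 0.96 and -0.53. The hair cell list had 3.41 on D, against 3.48, 3.45 and 3.45. The part of these markers in the level of the cycle genes on HC D was not tested.

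**Figure D5:**
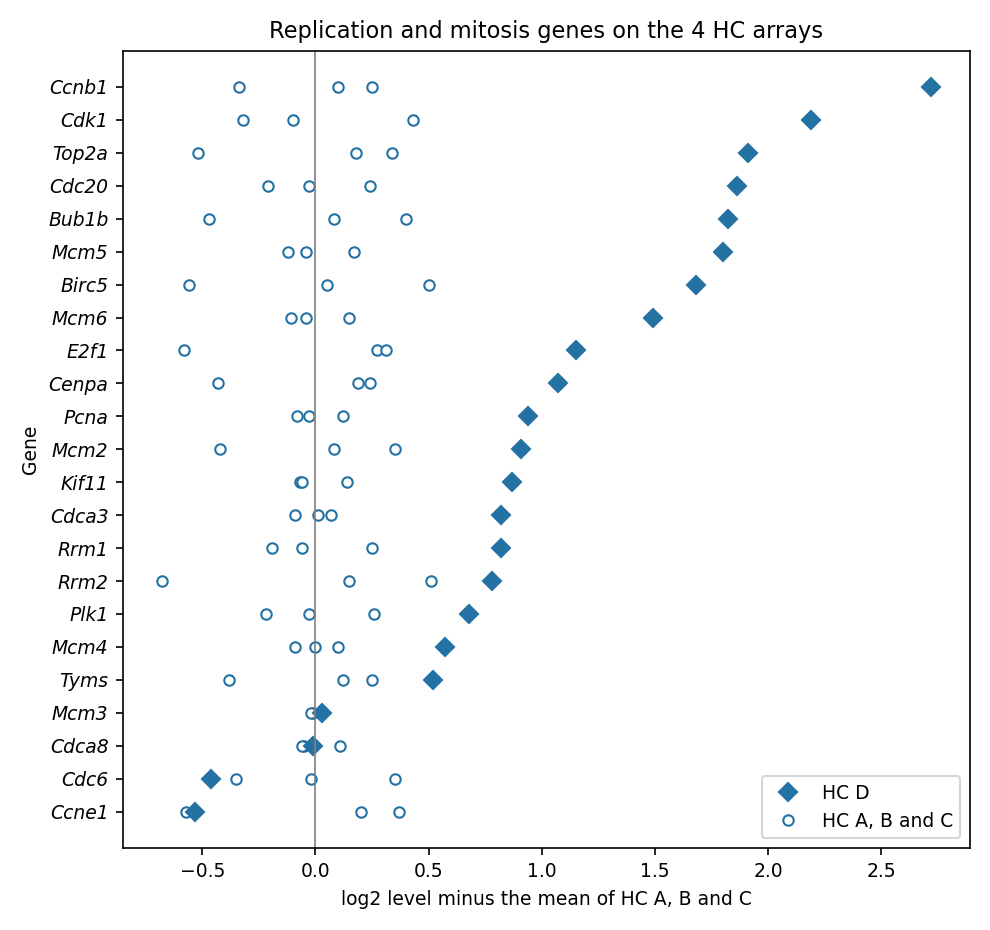
Log2 level minus the mean of HC A, B and C (horizontal axis) for 23 genes on HC D (diamonds) and HC A to C (open circles), ordered by the value of HC D. HC D is right of HC A to C for 20 genes, farthest for Ccnb1 (2.72) and Cdk1 (2.19), and not for Cdca8, Cdc6 and Ccne1. Kif11, Mcm3 and Rrm2, among the 20, were undetected on all HC arrays, as were Cdca8 and Ccne1.

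Between the GER and DC sorts, 0 of 23 members passed in either direction (0.892% of all genes were higher in GER and 3.27% lower; limma). At an unadjusted p under 0.05 the count was also 0, and 12 of the members were undetected in GER, in DC or in both. In the other 11 the differences ran from -0.66 (Mcm2, SE 0.35, adjusted p = 0.48) to 0.60 (Cdc20, SE 0.50, adjusted p = 0.73). With 3 and 2 arrays, a difference had to be several times its SE to pass, so smaller differences between GER and DC are not excluded. Of the 23 genes, 9 to 13 were detected on a GER array and 11 to 13 on a DC array.

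BM, with 1 array, has no replicate check and no test. Its level was above every HC, GER and DC array for 21 of 23 members (24.4% of all genes), the exceptions being Cdc6 (7.46) and Cdca3 (10.74). The 21 include the 9 members detected on fewer than 2 HC, GER and DC arrays. Their passing the filter needed detection on BM or CD271high, so this was partly built in. Mcm3 was undetected on BM itself (6.46), and Ccne1 was 7.30 there against at most 7.29 on undetected arrays. The BM array lay within the CD271high range for 9 members, above it for 7 and below it for 7. Bub1b, Ccne1, Cenpa, E2f1, Pcna and Rrm2 were above all 12 other arrays, 6 of 23, against 18.8% of all genes, and 0 were below all 12, against 15.9%. For E2f1 the BM level was 10.43, against 9.84 to 10.39 in CD271high. For Cdk1 it was lower than in CD271high, 9.53 against 10.18 to 10.70, as it was for Top2a, 8.87 against 9.46 to 9.60. Marker lists on this array were at 3.74 for mesenchyme, 2.70 for endothelium, 2.57 for pericytes, 2.82 for Schwann and satellite glia and -1.36 for macrophages, with 2 of 15 macrophage genes detected. The part of those cell types was not tested.

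The members varied together across arrays to different degrees, given here as a description over 13 arrays that share the split between CD271high and the rest. Pearson's r of a gene with the mean of the other members was 0.99 for Ccnb1 and Top2a and 0.98 for Cdk1, Kif11 and Mcm5. It was lowest for Ccne1 (0.01), Cdc6 (0.26), Cdca3 (0.65) and Rrm1 (0.72). Over the 9 arrays of HC, GER and DC alone it was 0.97 for Top2a and 0.94 for Ccnb1. Both genes were detected on HC D alone among these arrays, so these values set 1 array against levels near background. Pearson's r was lowest there for Ccne1 and Mcm3 (both -0.33), which were detected on none of these arrays. For Rrm1 it was -0.24, for Mcm4 -0.16 and for Cenpa 0.03.

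The 6 members that did not pass the filter were Bub1, a checkpoint kinase, Ccna2, cyclin A2, Ccnb2, cyclin B2, Ccne2, cyclin E2, Ube2c, the ubiquitin-conjugating enzyme of the anaphase-promoting complex, and Mcm7, a helicase subunit. The first 5 were detected on 0 of 13 arrays. Their probes gave no measure of these genes in any population, CD271high and BM included. Mcm7 was detected on the BM array alone, at 8.07, against 6.21, 5.90 and 6.59 in CD271high. Aurka, a mitotic spindle kinase whose probe carries the older symbol Stk6 and is therefore no member, was 4.59-fold higher in CD271high relative to HC, GER and DC (2.20 ± 0.31, adjusted p = 0.00012).

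Wider lists of the same pathways were read beside the members and against the shares over all genes, 19.4% higher and 24.2% lower. Of 38 measured further replication genes, 25 were higher in CD271high, 1 was lower (Dut, the dUTPase, -0.75 ± 0.20, adjusted p = 0.01) and 12 did not pass (median 0.75). The largest difference was that of Tk1, thymidine kinase, at 4.09 ± 0.46 (adjusted p = 1.8e-05). Its levels were 9.66 on the BM array, 9.92, 10.24 and 10.65 on the CD271high arrays, 6.26, 6.89, 5.32 and 8.36 on HC A to D, 5.74, 5.79 and 6.05 on the GER arrays, and 5.86 and 6.06 on the DC arrays. The CD271high and BM arrays were above all others and HC D was the next. HC D was also the only HC, GER or DC array on which Tk1 was detected, and its bounds were at least 8.04-fold against GER and at least 9.86-fold against DC. Clspn, the checkpoint mediator claspin, differed by 2.59, Cdt1, which loads the helicase with Cdc6, by 2.45, and Mcm10, an initiation factor, by 2.22. Of 43 further mitosis genes, 38 were higher, 1 was lower (Cdc25b, -0.92 ± 0.20, adjusted p = 0.0024) and 4 did not pass (median 1.88). Cdc25b was undetected in CD271high, GER and DC, and its call came from HC (-3.39 against HC alone). Of the 43, 40 to 41 were detected on each CD271high array and 31 on HC D. On the other HC, GER and DC arrays 18 to 22 were. Of the 38 replication genes, 37 to 38 were detected on each CD271high array and 25 to 33 on HC, GER and DC arrays. For genes that passed the filter only through BM or CD271high, a difference was built in. Pbk, a mitotic kinase, was at least 13.8-fold higher against GER and at least 17.0-fold against DC (adjusted p = 0.00043 and 0.00068), and outside BM and CD271high it was detected on HC D alone. Nusap1, a spindle protein, was 14.5-fold higher than the mean of HC, GER and DC, Prc1, the organiser of the central spindle, 12.5-fold, and Anln, the furrow protein anillin, 11.9-fold. Without background correction these 3 were 6.08-fold, 7.25-fold and 6.23-fold higher. Of 27 genes of G1 and cycle control, 7 were higher, 5 were lower and 15 did not pass (median 0.22), which is near the shares over all genes, with Rbl1, the pocket protein p107, at 1.82 and Foxm1, a transcription factor of mitotic genes, at 1.21. The lower ones were the transcription factor genes E2f2 (-0.80), E2f4 (-0.56), E2f6 (-0.39) and Tfdp2 (-0.56), and Cdc23 (-0.57), a subunit of the anaphase-promoting complex. Genes with calls in the less common direction were picked out after their values were seen. With HC D left out, the higher and lower counts of these lists, in the same order, were 25 and 1, 38 and 1, and 11 and 5. Of all genes called in that fit, 45.1% were higher, against 44.5% with all arrays. Its shares of all genes called higher and lower are not given here, so these counts are not read against a background.

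In HC against GER and DC, 5 of the 38 replication genes were higher and 4 lower, 9 of the 43 mitosis genes were higher and 2 lower, and 4 of the 27 control genes were higher and 7 lower. With 19.5% of all genes higher and 26.5% lower, the shares in these lists were near or below the background, and the genes below are given as values. With HC D left out, these became 3 and 11, 7 and 7, and 2 and 9, so the counts depended on that array. Of all genes called in that fit, 40.9% were higher, against 42.5% with all arrays. The shares of all genes called higher and lower in that fit are not given here, so its counts are not read against a background. Cdc25b, the phosphatase that activates Cdk1, had levels of 7.89 on the BM array, 6.42, 6.03 and 6.29 on the CD271high arrays, 9.33, 9.76, 9.91 and 9.57 on HC A to D, 6.06, 5.66 and 6.31 on the GER arrays, and 6.23 and 5.47 on the DC arrays. It was high on all 4 HC arrays and undetected in CD271high, GER and DC. Cdc25b was at least 5.77-fold above GER and DC in HC (adjusted p = 1.9e-08), with a fitted difference of 3.71, and 3.74 without HC D. Kif23, a kinesin of the central spindle, was at least 1.72-fold higher (adjusted p = 0.00015). Dnmt1, the methyltransferase that copies DNA methylation at the fork, differed by 1.16 ± 0.15 (adjusted p = 5.5e-05), and Cdc7, the kinase that fires origins, by 1.0 ± 0.15 (adjusted p = 0.00018). The other higher replication genes were Cdc45 (0.99), Lig1 (0.62) and Rpa1 (0.37), and the lower ones were Gins3 (-0.85), Rfc3 (-0.83), Orc6 (-0.50) and Pold3 (-0.50). The lower mitosis genes were Tmpo (-0.88) and Cenpq (-0.46), and the higher control genes Mybl2 (0.85), Cdc23 (0.82), Ube2s (0.81) and Fzr1 (0.39). Nusap1 (1.39, adjusted p = 0.04) did not pass without HC D (0.77, adjusted p = 0.057), and Prc1 (1.26, adjusted p = 0.026) differed by 0.72 without it (adjusted p = 0.013).

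Between GER and DC, 0 of 38 replication genes were higher and 1 was lower, 0 of 43 mitosis genes passed, and of 27 control genes 0 were higher and 1 was lower. Ccnd1, cyclin D1, which drives cells through G1, had levels of 13.60 on the BM array, 12.78, 12.82 and 13.23 on the CD271high arrays, 13.23, 13.03, 12.44 and 13.06 on HC A to D, 11.39, 11.53 and 11.44 on the GER arrays, and 13.59 and 13.84 on the DC arrays. All GER arrays were below all others, DC was as high as BM, and HC overlapped CD271high. Ccnd1 was 4.81-fold lower in GER than in DC (-2.27 ± 0.23, adjusted p = 0.00016). Pole, the catalytic subunit of DNA polymerase epsilon, was 6.06-fold lower in GER (-2.60 ± 0.51, adjusted p = 0.012). Its levels were 8.66, 8.75 and 6.76 in GER, against 10.53 and 10.78 in DC, with GER C the lowest.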

How the data were processed

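Expression was measured on 13 Illumina BeadChip arrays of 5 sorted populations, named by the sample titles. Per the file headers, the deposited scanner table gives bead intensity averages for 25697 probes without normalization, with a detection p-value beside each; 26 further per-array columns, 2 per array, were not used. A second deposited table holds log2 values that, from their identical distributions, the authors had quantile normalized, and it served as an alternative. The scanner software is not given in the sources used here.

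The neqc function of limma 3.58.1 (R 4.3.3) removed background by normexp with an offset of 16, using detection p-values, then quantile normalized and took log2. The filter kept 13192 probes that had a detection p under 0.01 on 2 or more arrays, and a gene was represented by its passing probe with the highest mean, leaving 10088 genes and removing 7950. Probes were named by the RefSeq gene table (GRCm38.p6): 23876 by accession, 482 by Entrez ID, and 1339 kept the symbol of the file. Members were taken by the file's own symbol.

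Each gene was fitted by lmFit with a mean for each population (8 residual and 3.7 prior degrees of freedom), and eBayes gave two-sided tests with Benjamini-Hochberg adjustment over 10088 genes and a threshold of 0.05. HC, GER and DC, or GER and DC, were averaged with equal weight per population. BM was described without a test. A fold against a side undetected on every array is a lower bound, with that side on each array at the lowest detected level or, if higher, at its own value. No pair of arrays was identical (highest r 0.9919). The fit was tested on simulated data. Per comparison, up to 6 passing members in each direction, and up to 4 per wider list, were given with full statistics. Members and lists were chosen with earlier results of these data known. The arrays were not treated as paired by replicate letter. Deviations of same-letter arrays from their population means correlated at -0.13 to 0.18, over 0.1 in 4 of 15 pairs. Those of different-letter arrays correlated at -0.28 to 0.19. Deviations within a population cancel out, so these values cannot tell whether the letters pair the samples. The number of arrays limits the precision.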

Additional observations from a re-analysis of the deposited data

Results flagged for a closer look

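In HC, the array of replicate D was far from the other 3 for 2 of the 23 members by Dixon's test for a single outlying value, in which the gap to the nearest array, divided by the range, exceeded the critical value for 4 arrays. Mcm5 had a log2 level of 10.09 on HC D, against 8.17 to 8.46 on HC A to C (ratio 0.847). Mcm6 had 10.67 on HC D, against 9.07 to 9.33 on HC A to C (ratio 0.842). Its other passing probes did not show so wide a gap. There HC D had 9.38 against 8.51 to 9.32, and 8.33 against 7.63 to 8.04. Chance flags about 1 in 20 groups, and 2 of 23 genes were marked. Cdca3 (0.826), Ccnb1 (0.810) and Pcna (0.802), each highest on HC D, fell just short.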

How the results depend on the processing

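Counts of members called kept within 1.5 times of those reported under most alternatives, which were no background correction, median scaling, no filter on dim probes, the mean of a gene's probes, the authors' log2 values, beadchip as a block or as a subset, the replicate letter as a block, single populations, and leaving out each array. The exceptions lay within beadchip 2 (5 arrays, no DC, 2 residual degrees of freedom), which has fewer samples: there 4 members were higher in CD271high (1548 genes of all called), and 1 was higher and 0 lower in HC (1426 genes). Within beadchip 1, 3059 genes were called in HC. Against DC alone, 2519 genes were called in CD271high. Leaving out 1 array at a time gave 21 to 22 members higher and 0 lower in CD271high (3622 to 4528 genes), 4 to 6 higher and 3 to 4 lower in HC (3936 to 4611 genes), and 0 in GER against DC (159 to 379 genes: 242 without DC A and 159 without DC B, against 420). Reversed values for CD271high were Cdc6 within beadchip 2 (-0.29, adjusted p = 0.66), and Cdc6 (-0.69, adjusted p = 0.079) and Cdca3 (-0.02, adjusted p = 0.97) against HC alone. Of 528 recomputed differences of members called in CD271high, 501 kept direction and call, 24 lost the call and 3 reversed; of 140 in HC, 133 kept both and 7 lost the call. HC D exceeded the mean of HC A to C in the level of the members by 1.03, and by 0.60 without background correction and with the authors' values; the gap between CD271high and the other arrays was 0.80, and 0.55 in both of those. The cause was not tested. With the replicate block, 22 members were higher and 0 lower in CD271high, 4 higher and 4 lower in HC, and 0 in GER against DC (4507, 4583 and 457 genes of all). Signals near background limit what can be read for the 9 members detected on fewer than 2 HC, GER and DC arrays.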

Other observations

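Of the 6 measured genes of the E2F family of cell cycle transcription factors, in CD271high relative to HC, GER and DC, E2f1 differed by 2.64 ± 0.34 (adjusted p = 5.5e-05) and E2f5 by 0.28 ± 0.10 (adjusted p = 0.045). E2f2 differed by -0.80 ± 0.20 (adjusted p = 0.0063), E2f4 by -0.56 ± 0.18 (adjusted p = 0.024), E2f6 by -0.39 ± 0.13 (adjusted p = 0.032) and E2f3, which did not pass, by -0.32 ± 0.18 (adjusted p = 0.18). The calls in both directions in the list of G1 and control genes were near the shares over all genes. Cdc23 was lower in CD271high (-0.57 ± 0.15, adjusted p = 0.0075) and higher in HC relative to GER and DC (0.82 ± 0.15, adjusted p = 0.00068).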
